A study of Mus musculus with 8 samples.

Results

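The peaks of CTCF and of the cohesin subunit Smc3 were compared within C59, a clone of mouse embryonic stem cells in which both proteins' complexes carry tags. Every peak on a numbered autosome entered, and a CTCF peak and an Smc3 peak formed a pair when they shared 1 bp or more. The C59 CTCF list gave 80258 such peaks of 82227 and the C59 Smc3 list 25400 of 25734, together 105658 of the 254001 peaks in the study's 4 lists. Peaks on the sex chromosomes and other sequences, 1969 of CTCF and 334 of Smc3, stood outside the comparison.

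The study mapped CTCF and Smc3 by chromatin immunoprecipitation and sequencing (ChIP-seq) in JM8.N4 mouse embryonic stem cells, as untagged wild type and as C59. C59 is a single clone, homozygous for knock-in alleles that encode FLAG-Halo-CTCF and Rad21-SNAPf-V5, so that all of its CTCF and all of the cohesin subunit Rad21 are tagged while Smc3 is not. Both lines grew without feeders in serum and LIF, received no treatment, and were fixed in 1% formaldehyde for 5 min. With 1 library per protein and line no value has a replicate error, and no test between the proteins or lines was made. Expression was not measured, and the labelled cell type could not be checked against marker genes. The intervals given are exact Clopper-Pearson 95% intervals, which cover counting error and nothing else, and neighbouring peaks of a list share a library and are not independent.

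Many zinc fingers let CTCF recognise a long, conserved DNA motif. Cohesin is a ring built of Smc1a, Smc3, Rad21 and a Stag subunit. It is loaded on chromatin by Nipbl, extrudes loops of DNA, is halted by CTCF bound in the right orientation, and is released by Wapl, so that loops end at paired CTCF sites. Transcribing RNA polymerase can also push cohesin along genes. In embryonic stem cells these loops partition the genome into domains that hold genes and their enhancers.

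The kinds of site compared are shown by stretches that lie just upstream of annotated gene starts, the part of the genome for which sequence was at hand (RefSeq start windows, GRCm38.p6). They were picked after values were seen, by Smc3 pileup where Smc3 had a peak and by CTCF pileup where it had none. Pileup is the height of stacked fragments at a peak's summit, the authors' value. Capitals mark the letters searched on both strands as a core of the CTCF motif, CCANNAG run on into NNGGC, where N stands for any base. In 4 of the stretches a CTCF peak overlapped an Smc3 peak. They lie at C1qbp (chr11:70983052-70983133, minus strand), Mgat5b (chr11:116918758-116918839, plus strand), Gm30470 (chr11:79224582-79224663, plus strand) and Snx18 (chr13:113618667-113618748, minus strand), all 5' to 3'.
C1qbp: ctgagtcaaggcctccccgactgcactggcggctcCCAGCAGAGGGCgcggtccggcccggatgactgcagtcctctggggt
Mgat5b: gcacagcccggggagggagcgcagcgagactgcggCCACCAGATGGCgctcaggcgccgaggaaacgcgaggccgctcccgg
Gm30470: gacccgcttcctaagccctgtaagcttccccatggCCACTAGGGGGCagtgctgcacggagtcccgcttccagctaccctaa
Snx18: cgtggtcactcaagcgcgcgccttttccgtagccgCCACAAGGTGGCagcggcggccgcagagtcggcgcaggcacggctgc
At C1qbp the CTCF pileup was 247.07 and the Smc3 pileup 95.7, with summits 3 bp apart. At Mgat5b the pileups were 248.99 and 92.61 and the summits 13 bp apart. Gm30470 had 296.1 and 83.35 with summits 28 bp apart, and Snx18 had 252.84 and 83.35 with summits 4 bp apart. Chromosome 11, which holds the first 3, had a raised background in C59, described with the chromosomes.

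CTCF peaks of like height over such core letters had no Smc3 peak in other stretches. These lie at Nmur1 (chr1:86389436-86389517, plus strand), Rplp0 (chr5:115559255-115559336, plus strand) and Kif1b (chr4:149307878-149307959, minus strand).
Nmur1: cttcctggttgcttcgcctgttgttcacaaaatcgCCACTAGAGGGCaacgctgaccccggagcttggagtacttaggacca
Rplp0: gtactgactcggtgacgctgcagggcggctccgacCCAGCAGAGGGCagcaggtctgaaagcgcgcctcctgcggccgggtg
Kif1b: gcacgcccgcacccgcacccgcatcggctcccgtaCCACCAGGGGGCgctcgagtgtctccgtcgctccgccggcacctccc
Their CTCF pileups were 307.63 at Nmur1, on chromosome 1 with its raised background, 284.56 at Rplp0 and 280.71 at Kif1b. The wild type Smc3 list had a peak over each of these sites, with pileups of 41, 48 and 37. Over the 4 sites above it had 112 to 137. Those sites were picked for high Smc3 pileup in C59 and these for lacking Smc3 there, so the difference cannot be read as a result. The core of C1qbp, CCAGCAGAGGGC, stood letter for letter at Rplp0 as well, so in C59 the same core lay under both proteins at one gene and under CTCF without a listed Smc3 peak at the other.

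The third kind of site had Smc3 and no CTCF peak, and its stretches are centred on the Smc3 summit. They lie by the starts of Cd68 (chr11:69666203-69666283, minus strand) and B3galt4 (chr17:33951586-33951666, minus strand), and neither holds the core letters.
Cd68: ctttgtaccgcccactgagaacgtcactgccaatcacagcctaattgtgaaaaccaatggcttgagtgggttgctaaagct
B3galt4: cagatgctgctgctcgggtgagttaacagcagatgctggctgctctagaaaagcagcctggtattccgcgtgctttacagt
The Smc3 pileup was 66.37 at Cd68 and 43.22 at B3galt4. The first of these summits lay 693 bp past the 3' end of Eif4a1, a translation initiation helicase, and the second 372 bp past the 3' end of Rps18, a ribosomal protein of the small subunit.

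Nearly all Smc3 peaks touched a CTCF peak, while most peaks of the longer CTCF list had no Smc3 peak. Of the 25400 Smc3 peaks, 24863 (97.9%, interval 97.7 to 98.1) overlapped CTCF and 537 did not. Of the 80258 CTCF peaks, 24377 (30.4%, interval 30.1 to 30.7) overlapped Smc3 and 55881 did not. In bases, CTCF peaks covered 96.1% of the length of Smc3 peaks, and Smc3 peaks covered 21.7% of the length of CTCF peaks. In the wild type lists, measured with other libraries, 95.1% of 46349 Smc3 peaks had CTCF and 44.4% of 96324 CTCF peaks had Smc3. The Smc3 list was the shorter of the pair in each line, which bounds the share of CTCF peaks that can be matched. With the C59 CTCF list held to its 25400 highest peaks, 75.3% of them had Smc3, and 77.1% of Smc3 peaks had CTCF. With an overlap of at least 50% of both peaks required, which drops pairs of unequal width, 52.2% of Smc3 and 16.5% of CTCF peaks were matched. The 1 bp rule decided few pairs: 14 Smc3 peaks overlapped CTCF by 50 bp or fewer, with a median pileup of 20.455, and 8 missed a CTCF peak by 50 bp or fewer, with the same median pileup.

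The matching was close to one to one. Of the Smc3 peaks with CTCF, 24848 lay on 1 CTCF peak, 14 on 2 and 1 on 3, so 0.0603% had more than 1. The Smc3 peak with 3 CTCF peaks spanned 2656 bp, 1685 bp from Hspa8, which encodes a constitutive heat shock chaperone, and its pileup was 64.06. The reverse was more frequent: 468 CTCF peaks held 2 Smc3 peaks and 17 held 3, together 485 (1.99%) of the CTCF peaks with Smc3, against 3.08% in wild type. Pairs in which neither peak had another partner numbered 23867 (96.0%).

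CTCF peaks that held several Smc3 peaks were wide. Their median width was 1670 bp, against 790 bp for those with 1 Smc3 peak, and their median pileup was 211.5 against 160.55. Among the 468 with 2 Smc3 peaks, the nearer Smc3 summit lay at a median of 22 bp from the CTCF summit and the farther at 796 bp. The nearer one had the higher pileup in 342 of 468 (73.1%), with medians of 37.82 and 27.78. A CTCF peak of 2953 bp near Mmd (chr11:90167513-90170465) was one of the 17 with 3 Smc3 peaks. Its nearest Smc3 summit lay 74 bp from the CTCF summit, with a pileup of 77.95, and the farthest 2270 bp away, with a pileup of 72.55.

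The summits of the proteins nearly coincided. In the 24863 pairs, each Smc3 peak taken with its nearest CTCF summit, the median distance was 24 bp and the quartiles were 11 and 46 bp. Summits were within 10 bp in 24.0% of pairs, within 50 bp in 78.9% and within 100 bp in 94.0%, with 357 pairs on the same base. The sides were nearly even along the chromosome: the Smc3 summit had the higher coordinate in 48.3% of pairs, 1.44% shared a base, and the signed median was -1 bp. These sides were taken without regard to the strand of the motif, so they cannot show an offset along it. That offset is read below for the pairs in start windows. The distances are also shorter than the peaks themselves, and no fixed offset was resolved.

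**Figure D1:**
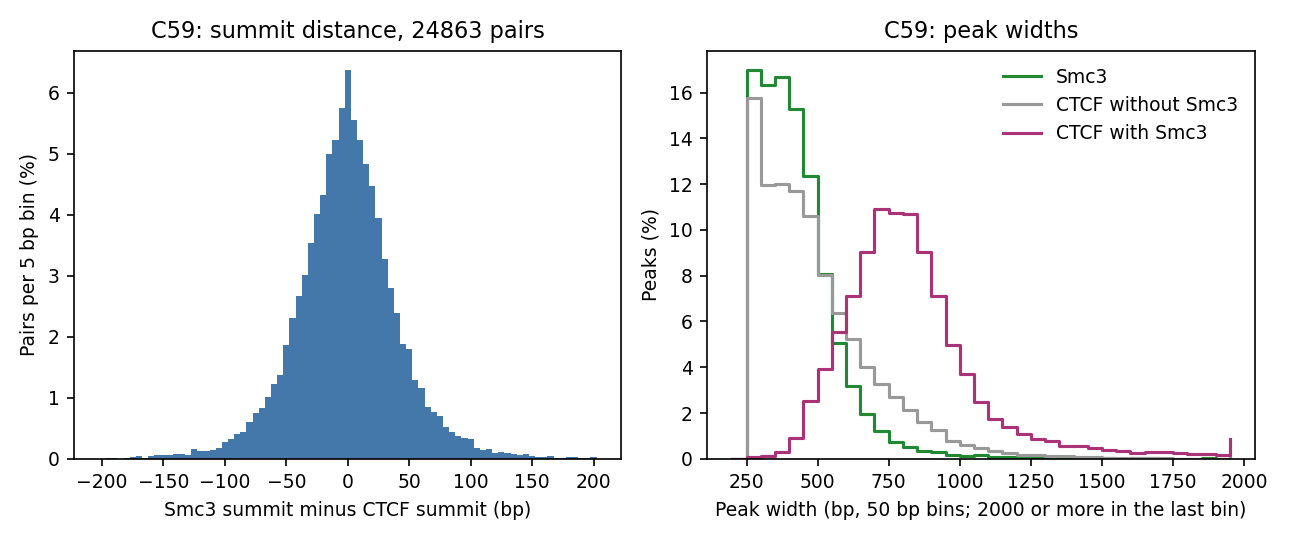
The left panel shows the distance in bp from the CTCF summit to the Smc3 summit in the 24863 C59 pairs, as the percentage of pairs per 5 bp bin, with those beyond the axis left out of view. The right panel shows the percentage of peaks per 50 bp of width for Smc3, for CTCF peaks with Smc3 and for CTCF peaks without; the distance peaks at 0, and CTCF peaks with Smc3 are the wide class, with a median of 794 bp.

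Distance was related to how high the Smc3 peak was. With Smc3 peaks split at the quartiles of their pileup, the median distance was 33 bp in the lowest group and 25, 23 and 20 bp in the following ones. In wild type the median was 27 bp, with 73.3% of pairs within 50 bp. A small class stood far apart: 577 pairs (2.32%) had summits more than 500 bp from each other. The farthest, 2723 bp, was inside Mmp9, a secreted matrix protease, where a CTCF peak of 3868 bp with a pileup of 256.68 held an Smc3 peak of 266 bp with a pileup of 20.84.

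CTCF peaks were the wider of the pair. In pairs the median width was 798 bp for CTCF and 400 bp for Smc3, and the median ratio within a pair was 1.95 (quartiles 1.59 and 2.45). The Smc3 peak lay wholly inside the CTCF peak in 95.3% of pairs, and its summit fell inside the CTCF peak in 99.7%. The ratio was 2.27 in the lowest quartile group of Smc3 pileup and 1.62 in the highest. In wild type it was 1.64, with 81.5% of Smc3 peaks wholly inside. Width went with pileup across peaks within each list (Spearman's rho 0.877 over 80258 CTCF peaks and 0.721 over 25400 Smc3 peaks), and the widths of the partners went together less closely (rho 0.319 over 24863 pairs). Peaks share their library, so these are descriptions with no test.

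CTCF peaks with Smc3 were the higher and wider CTCF peaks. Their median pileup was 162.47, against 38.45 for those without Smc3, and their median fold enrichment over local background, also the authors' value, was 27.4 against 7.38. Median widths were 794 and 444 bp. At matched pileup the widths were closer: in the highest decile of CTCF pileup the medians were 910 bp with Smc3 and 886 bp without, and in the seventh decile 664 and 640 bp.

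The share of CTCF peaks with Smc3 followed CTCF pileup steeply. It was 0.274% in the lowest decile, 7.44% in the fifth, 19.7% in the sixth, 42.9% in the seventh, 64.3% in the eighth, 78.9% in the ninth and 86.6% in the highest. The corresponding wild type shares ran from 2.84% to 97.1% and were above those of C59 in every decile. The reverse share varied less: the lowest decile of Smc3 pileup had CTCF at 90.3% of peaks and the highest at 99.4%.

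**Figure D2:**
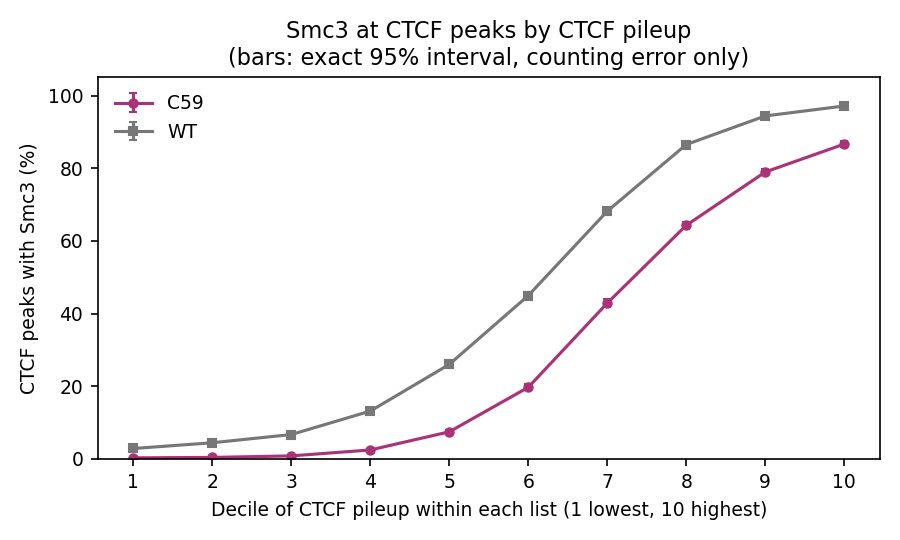
Percentage of CTCF peaks that overlap an Smc3 peak in each decile of CTCF pileup (1 lowest, 10 highest), for C59 and wild type, 1 library per protein and line, with exact 95% intervals. The C59 share is 7.44% in the fifth decile and reaches 86.6% in the highest, with wild type above C59 throughout.

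Within pairs the pileups of the proteins agreed in part. Spearman's rho was 0.555 over 24863 pairs (Pearson's r of log2 values 0.556) and 0.571 over the 23867 one-to-one pairs. As the median CTCF pileup went from 66.33 in the lowest decile of pairs to 265.33 in the highest, the median Smc3 pileup went from 22.38 to 50.16. The spread inside a decile was wide: in the highest, the percentiles 5 and 95 of Smc3 pileup were 23.92 and 98.01. Inside quartile groups of CTCF pileup rho was 0.372, 0.151, 0.113 and 0.279 from lowest to highest. Of the top decile of pairs by Smc3 pileup, 999 of 2585 (38.6%) were also in the top decile by CTCF pileup, and 228 (8.82%) were in the lower 50%. In wild type rho was 0.727 over 44091 pairs, and 1.81% of the top decile by Smc3 were in the lower 50% by CTCF.

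**Figure D3:**
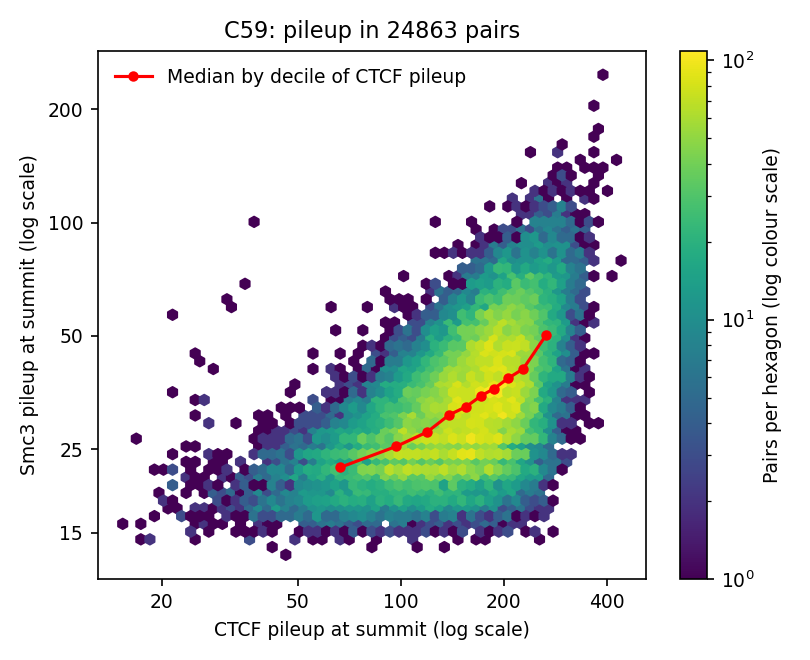
CTCF pileup (horizontal, log scale) against Smc3 pileup (vertical, log scale) at the summits of the 24863 C59 pairs, coloured by the number of pairs per hexagon, with the median Smc3 pileup by decile of CTCF pileup in red. The medians go from 22.38 to 50.16, and the cloud is broad at every CTCF pileup; the horizontal bands follow the steps of the deposited Smc3 values.

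Named pairs show the extremes. The highest Smc3 pileups lay over Sfi1, a centrosome gene, at 246.96 and 202.2, but with fold enrichments of 2.41 and 1.64, so the local background was high there as well. The next, 7414 bp from Enah (chr1:181888588-181889368), had 177.51 with a fold of 16.23, on a CTCF peak of 388.39, with summits 11 bp apart. Sfi1 lies on chromosome 11 and Enah on chromosome 1, both with a raised background in C59. Rbm47, an RNA binding protein gene, held the one-to-one pair with the largest excess of CTCF rank over Smc3 rank, both taken among such pairs. Its CTCF pileup of 279.75 stood at percentile 99.0 of the CTCF list, while its Smc3 pileup of 15.44 stood at percentile 0.343 of the Smc3 list. In the other direction, Slc35b2, a Golgi transporter gene, had an Smc3 pileup of 67.92 on a CTCF peak of 34.61, at percentiles 95.4 and 31.4 of their lists. The next pairs of that kind lay 1352 bp past the 3' end of Rps9 and 173 bp past that of the histone gene H4c6. Their Smc3 pileups were 58.65 and 57.11 and their CTCF pileups 32.69 and 21.15.

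Chromosomes 1 and 11 stood apart in C59. The background that the authors' values imply at summits was 1.36 times the median outside chromosomes 1, 8 and 11 on chromosome 1 and 1.45 times on chromosome 11 for CTCF, and 1.5 times on both for Smc3, whereas the other 17 autosomes lay between 0.951 and 1.00 for CTCF and between 0.999 and 1.00 for Smc3. On these chromosomes 34.7% and 31.8% of CTCF peaks had Smc3, against 26.5 to 32.1% on the others, median Smc3 pileups were 38.59 and 39.36 against 29.33 to 31.64, and rho was 0.644 and 0.610 against 0.454 to 0.568. Summit distances there, 25 and 23 bp, lay within the range of the others, 23 to 26 bp. Whether the raised background has a part in the shares was not tested. The Smc3 share with CTCF was lowest on chromosome 13, at 94.7%, which carries the largest histone gene cluster.

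High CTCF peaks without Smc3 were often at gene starts. Of the 8026 CTCF peaks in the highest decile of pileup, 1073 had no Smc3 peak, and 274 of these (25.5%, interval 23.0 to 28.3) had their summit within 1 kb of a start site, against 632 of the 6953 with Smc3 (9.09%, interval 8.42 to 9.79). Median pileups of these groups were 221.11 and 227.84. Wild type Smc3 peaks overlapped 78.7% of the 1073, so that most had an Smc3 peak in the longer list. Over all CTCF peaks, 22.9% of those at start sites, 26.8% of those inside genes and 35.5% of those outside genes had Smc3. Weighted equally over the deciles of pileup these shares were 21.7%, 28.1% and 34.1%.

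The highest CTCF peak without Smc3, with a pileup of 384.54 and a fold of 67.05, lay at the start of Exd1 (chr2:119546695-119548003), a gene of the piRNA pathway, and no Smc3 peak was listed there in wild type either. Next came peaks near Aanat, which encodes an enzyme of melatonin synthesis, at 345.13, and near Dus3l, which encodes a tRNA modifying enzyme, at 343.2. In wild type Smc3 was listed at 51 near Aanat and not near Dus3l.

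The core letters were more frequent under CTCF peaks that had Smc3. They stood in 775 of 31365 start windows of 300 bases (2.47%), under 128 of the 496 CTCF peaks with Smc3 whose summit fell in such a window (25.8%, interval 22.0 to 29.9) and under 136 of 1267 without (10.7%, interval 9.08 to 12.6). At CTCF pileups under 100 the shares with and without Smc3 were 17.1% (7 of 41, interval 7.15 to 32.1) and 8.97% (interval 7.13 to 11.1). Between 100 and 200 they were 23.5% (interval 18.0 to 29.7) and 13.9% (interval 10.0 to 18.6). At 200 or more they were 29.3% (interval 23.7 to 35.5) and 15.0% (interval 9.62 to 21.8). The intervals were apart in the highest band only. Of the Smc3 summits without CTCF in such windows, 2 of 21 had the letters. The match is to fixed letters inside the window, and its absence says nothing of CTCF binding by other sequences.

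Of the 264 CTCF peaks with the letters in the start window that held their summit, 219 (83.0%, interval 77.9 to 87.3) had the centre of the letters within 50 bp of the summit. Among these were 113 pairs with Smc3, in which the CTCF summit was thus near the letters by choice. Read along the motif, from the first C of the core onward, the Smc3 summit was downstream of the CTCF summit in 62 of 113 (54.9%, interval 45.2 to 64.2), at a median of 6 bp, so no side was favoured beyond counting error.

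Smc3 peaks without CTCF were few, mostly low, and unlike the others in place and, among the higher ones, in width. Their median pileup was 21.61, against 32.41 for those with CTCF, and the nearest CTCF peak lay a median of 2577 bp away, with 153 of 537 within 1 kb. Median widths were close, 386 and 400 bp, but the higher peaks differed. In the highest decile of Smc3 pileup those without CTCF had a median width of 1209.5 bp and those with CTCF 570 bp. In that decile 2526 of 2540 peaks had CTCF, so the median without CTCF rests on few peaks. Wild type Smc3 peaks overlapped 340 of the 537 (63.3%) and wild type CTCF peaks 46 (8.57%). For Smc3 peaks with CTCF these shares were 98.9% and 99.9%.

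Many lay at the ends of genes, and more of them at 3' than at 5' ends. Of the 529 such peaks on chromosomes with strand information, 249 (47.1%) had a summit no more than 1 kb from a protein-coding gene's 5' or 3' end, against 6.63% of the 24098 Smc3 peaks with CTCF. In detail, 198 (37.4%, interval 33.3 to 41.7) lay within 1 kb of a 3' end and 116 (21.9%, interval 18.5 to 25.7) within 1 kb of a 5' end. For Smc3 peaks with CTCF the shares were 3.10% and 3.86%. CTCF peaks without Smc3 leaned the other way, with 2.47% near 3' ends and 6.09% near 5' ends. Of the peaks without CTCF, 133 were near a 3' end and no 5' end, and 51 the reverse. This split was made after the positions at histone genes had been seen.

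Replication-dependent histone genes, short intronless genes whose transcripts end in a stem-loop and no poly(A) tail, were the clearest group. Of 67 such genes, 53 had an Smc3 summit and 10 a CTCF summit within 1 kb of a start site or, for genes with no start window, either end, against 7.98% and 29.0% of all 20665 protein-coding genes. Both summits were found at 9, against 7.22% of all genes, and Smc3 alone at 44, against 157 of the 20665. The low CTCF count was particular to the C59 list. In wild type 22 of the 67 had CTCF, near the 34.7% of all genes, and 33 had Smc3 alone, against 374 of the 20665. The 53 genes with Smc3 in C59 shared 41 different Smc3 peaks. The pileup of these peaks ranged from 20.07 to 87.98 with a median of 45.53, against a median of 30.87 at all genes with Smc3. Their median width was 706 bp, against 399 bp. The Smc3 peak overlapped no CTCF peak at 46 of the 53 genes, on 35 different peaks. At all genes with Smc3 that count was 157 of 1649.

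Every family of the group had members with Smc3: 5 of 6 H1 genes, 13 of 18 H2a, 14 of 17 H2b, 10 of 12 H3 and 11 of 14 H4. A CTCF summit stood at 6 of the 14 H4 genes, against 29.0% of all genes. It stood at 0 of the H1, 2 of the H2a, 1 of the H2b and 1 of the H3 genes. The highest Smc3 peak without CTCF on the numbered autosomes was at the linker histone gene H1f3 (chr13:23555185-23556313), with a pileup of 87.98, a fold of 14.83 and 3339 bp to the nearest CTCF peak. The next, 78.72, was at H4c9. In wild type 53 of the 67 genes also had Smc3, against 16.9% of all genes, with pileups of 88 at H1f3 and 69 at H4c9. The genes lie in clusters, 54 of them on chromosome 13, and neighbours can share a peak, so they are not 67 independent observations.

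The Smc3 summits lay just past the 3' ends of these genes. Of 62 with strand information, 40 had an Smc3 summit in the 1 kb past the 3' end, against 4.02% of all 16457 genes with strand information, and the nearest lay at a median of 174 bp (quartiles 138 and 197). At 34 of the 62 a summit in that place belonged to a peak without CTCF, against 0.990% of all genes. CTCF was in that place at 4 of the 62, against 7.72%. As examples chosen after values were seen, at H4c11 the summit was 175 bp past the end, at H3c3 153 bp and at H2ac8 191 bp, with pileups of 63.28, 61.74 and 37.04. An Smc3 summit stood in the 1 kb before the start of 20 of the 62 genes, against 4.09%, and at 18 of the 20 that summit was also past the 3' end of another histone gene. Without CTCF, such a summit stood before the start of 19, against 0.304%. Because the genes are short, with a median length of 489 bp, a window of 500 bp around the start held an Smc3 summit at 5 of the 67 genes in place of 53. Past the 3' end the count was 39 of 62 within 500 bp. In wild type 41 of the 62 had an Smc3 summit in the 1 kb past the 3' end, against 6.30% of all genes, at a median of 171 bp.

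**Figure D4:**
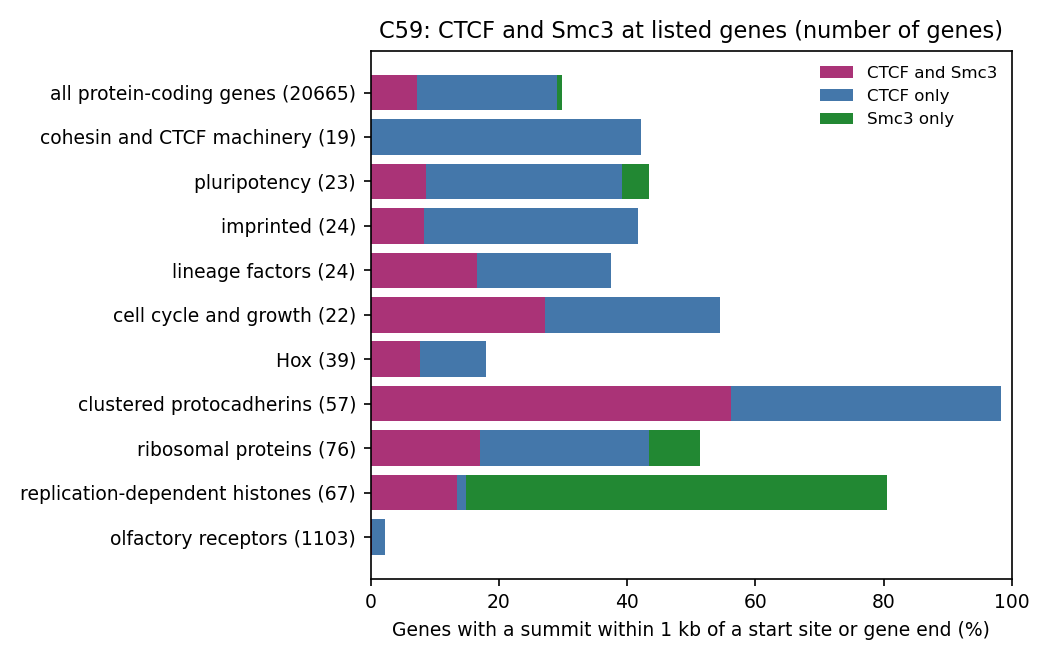
Percentage of genes in each list with both proteins, CTCF alone or Smc3 alone within 1 kb of a start site (or, without a start window, either end) in C59, with the number of genes in brackets. Replication-dependent histones are mostly Smc3 alone (44 of 67), and nearly all clustered protocadherins have CTCF (56 of 57).

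Ribosomal protein genes also had Smc3 past their 3' ends, at longer range. Of 56 with strand information, 28 had an Smc3 summit in the 1 kb past the 3' end and 1 in the 1 kb before the start, against 4.02% and 4.09% of all genes. Those past the 3' end lay at a median of 598.5 bp, and at 18 of the 56 the summit belonged to a peak without CTCF, against 0.990%. CTCF was past the 3' end at 12, against 7.72% of all genes, and before the start at 14, against 14.3%. Within 500 bp past the end the Smc3 count was 10, and at a q-value of 1e-10 or less it was 15. Wild type had Smc3 past the 3' end at 29 and before the start at 9, against 6.30% and 8.78% of all genes. Rplp0, which encodes a protein of the ribosomal stalk, had the proteins at different ends in C59: its start had CTCF at 284.56 and no Smc3 peak, although wild type listed Smc3 there at 48, and an Smc3 peak of 33.19 without CTCF had its summit 379 bp past the 3' end. At Rpl7a, Rpl5 and Rps18, also chosen afterwards, the summits were 357, 463 and 372 bp past the end, with pileups of 24.7, 22.38 and 43.22, all without CTCF. By the windows at starts or gene ends, 33 of 76 ribosomal protein genes had CTCF, 19 Smc3 and 13 both, against 29.0%, 7.98% and 7.22% of all genes.

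**Figure D5:**
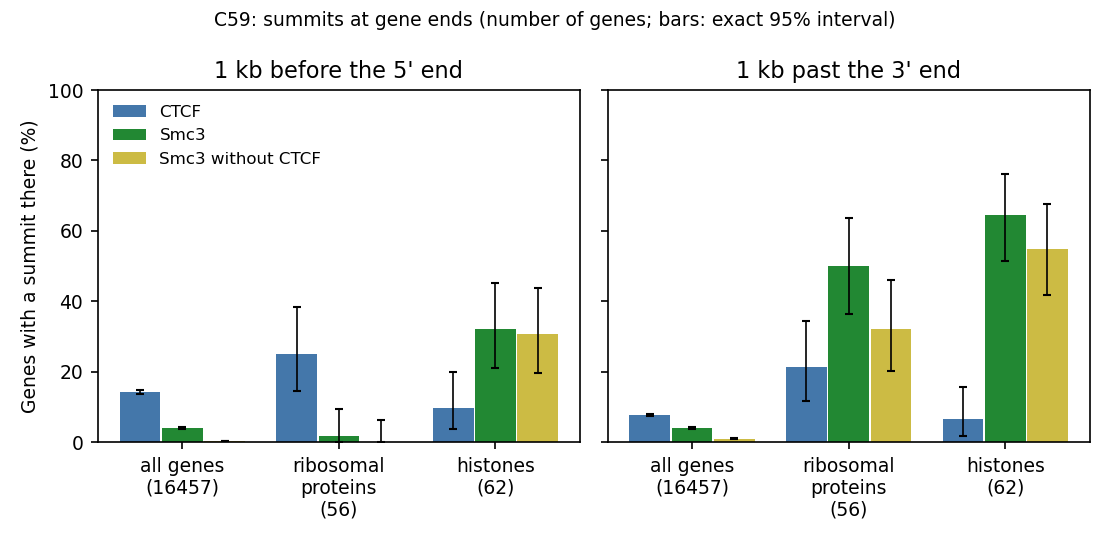
Percentage of genes with a summit in the 1 kb before the 5' end (left) and the 1 kb past the 3' end (right) in C59, for all genes with strand information and for the ribosomal protein and histone lists, with exact 95% intervals that cover counting error. Past the 3' end Smc3 was found at 40 of 62 histone and 28 of 56 ribosomal protein genes, and before the 5' end at 20 and 1.

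Outside those lists, 111 further genes had an Smc3 summit without CTCF in the 1 kb past the 3' end. The genes at the 10 highest of these peaks follow, a rule chosen after values were seen. The highest was past Rack1, which encodes a scaffold on the small ribosomal subunit, at 77.95 (chr11:48806268-48808174, reaching into Trim41), and the next past Tex2 at 67.14. Eif4a1 and Eif4a2, which encode helicases of translation initiation, had 66.37 and 63.28, and Eef2, a translation elongation factor gene, 57.11. Hnrnpu, which encodes a nuclear RNA binding protein, also had 57.11. A peak of 52.48 lay past the facing ends of Ftl1, a ferritin gene, and Gys1, a glycogen synthase gene. Txnip, which encodes a thioredoxin binding protein, had 47.08, Ppia, which encodes a prolyl isomerase, 44.76, and Mtif2, a mitochondrial translation factor gene, 43.99. Of these, Rack1, Tex2, Eif4a1, Ppia and Mtif2 lie on chromosome 11 and Hnrnpu on chromosome 1, where the background was raised. The Mtif2 peak (chr11:29545239-29545889) also overlapped Rps27a, a gene of the ribosomal protein list. Rps27a has no start window, so it was left out of the counts past the 3' end. By fold enrichment Eef2, at 12.73, stood above Rack1, at 11.28. Distances past the 3' end were 849 bp at Rack1, 693 at Eif4a1, 37 at Eif4a2 and 235 at Eef2. In all, 163 genes shared 162 different peaks of this kind, 30.6% of the 529. Whether these genes were highly transcribed in the cells was not measured.

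Of the 5 widest Smc3 peaks, 4 lay over noncoding genes, as seen when they were looked up. The widest of all, 6931 bp without CTCF (chr19:5795948-5802878), covered 96.3% of Malat1, a long nuclear noncoding RNA gene, with a pileup of 56.34. The second, 5729 bp with a pileup of 102.64, held 2 CTCF peaks and covered 86.2% of Gas5, a host gene of small nucleolar RNAs. Another, 4803 bp with a pileup of 99.56 (chr7:3217805-3222607), overlapped CTCF and covered the whole cluster from Mir290a to Mir295, microRNAs characteristic of embryonic stem cells. The widest CTCF peak, 4026 bp with a pileup of 257.64, lay 24639 bp from Rack1 and held 2 Smc3 peaks.

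Of 19 genes of the CTCF and cohesin machinery, 8 had a CTCF summit and 0 an Smc3 summit in their windows, against 29.0% and 7.98% of all genes. In the wild type lists 4 of the 19 had both, against 15.1%. The CTCF peaks were at 285.52 at Esco1, which encodes an acetyltransferase of Smc3, 155.74 at Smc3 itself and 22.11 at Ctcf. Rad21 had neither protein in its window, and 1 CTCF peak without Smc3 within 10 kb.

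Among 23 pluripotency genes, 9 had CTCF, 3 Smc3 and 2 both in C59, against 29.0%, 7.98% and 7.22% of all genes. The counts with Smc3 were thus near the share of all genes in C59. In wild type 9 of the 23 had Smc3 (39.1%) and 5 both (21.7%), against 16.9% and 15.1% of all genes. In C59 at Pou5f1, which encodes the factor Oct4, a wide CTCF peak (2166 bp, pileup 109.59) held an Smc3 peak at 24.7. The summits were 45 bp apart. Sox2 had an Smc3 peak at 20.84 and no CTCF in its window. Within 10 kb it had 6 Smc3 peaks, 2 of them with CTCF, against 97.9% of all Smc3 peaks. Nanog had neither in its window, although wild type listed Smc3 there at 27. Within 10 kb of Nanog C59 had 8 CTCF peaks. Of these 3 had Smc3, near the 30.4% of all CTCF peaks. Lefty1, which encodes an inhibitor of Nodal signalling, had CTCF at 161.51 without Smc3, although wild type listed Smc3 there at 23.

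Of 22 cell cycle and growth genes, 12 had CTCF and 6 both, against 29.0% and 7.22% of all genes, so that 6 of the 12 CTCF genes had Smc3, against 24.9% of the 5995 genes with CTCF overall. At the tumour suppressor gene Trp53 the CTCF pileup was 376.85 and the Smc3 pileup 99.56, with summits 32 bp apart, on chromosome 11 with its raised background. At Mycl they were 207.65 and 74.86, 5 bp apart. The folds were 20.99 and 6.7 at Trp53 against 41.73 and 15.17 at Mycl, so the local background was higher at Trp53. The kinase gene Akt1 and Mdm2, whose product marks the Trp53 protein for degradation, had CTCF at 248.03 and 188.43 and no Smc3. At Myc, CTCF stood at 56.72 without Smc3, and within 10 kb 2 of 4 CTCF peaks had Smc3, against 30.4% of all CTCF peaks. In wild type Smc3 was listed at 80 at Akt1 and 49 at Myc, and not at Mdm2.

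Of 24 lineage factor genes, 9 had CTCF, against 29.0% of all genes, and 4 of these had Smc3, against 24.9%. Olig2, a factor of oligodendrocyte precursors, had pileups of 198.04 and 58.65, and Nes, which encodes nestin of neural progenitors, 170.16 and 57.88, with summits 33 and 18 bp apart. Krt8, a keratin gene, and Eomes, a T-box factor gene, had CTCF at 67.29 and 59.6 without Smc3. Wild type listed Smc3 at these genes at 39 and 38. Of 24 imprinted genes, 10 had CTCF and 2 both in C59, the latter near the 7.22% of all genes. In wild type 6 of the 24 had both, against 15.1% of all genes. In C59 Gnas, which encodes a G protein subunit, had 134.59 and 39.36, 15 bp apart. Near H19, whose imprinting control region is a textbook CTCF insulator, all 3 CTCF peaks within 10 kb overlapped Smc3 peaks, against 30.4% of all CTCF peaks. The highest pileups there were 96.14 and 49.39, and 3 peaks are too few for a statement about the locus.

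Of 57 clustered protocadherin genes, which encode neuronal adhesion proteins chosen by CTCF-bound promoters, 56 had CTCF and 32 Smc3, against 29.0% and 7.98% of all genes. All 32 also had CTCF in a window, but not always at the same end of the gene. They drew on 52 different CTCF peaks and 13 different Smc3 peaks, and the strongest CTCF and Smc3 peaks of a gene overlapped at 16. Most Pcdhga, Pcdhgb and Pcdhgc genes with Smc3 shared the same Smc3 peak at their common end (chr18:37841181-37841721, pileup 44.76). At Pcdhga1 its summit lay 179718 bp from that of the CTCF peak. Smc3 pileups there ran from 17.75 to 63.28 with a median of 26.24. At Pcdhac1 the pileups were 257.64 and 47.85, with summits 20 bp apart. At Pcdhb2 CTCF stood at 160.55 without Smc3, although wild type listed Smc3 there at 30. Wild type had Smc3 at 52 of the 57, against 16.9%. These genes have no start window, and either end was used.

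Of 39 Hox genes, the body axis factors, 7 had CTCF and 3 both, the first below and the second near the 29.0% and 7.22% of all genes. Hoxc5 had 203.81 and 64.83, with summits 8 bp apart, and Hoxb5 262.45 and 55.57, 25 bp apart. Hoxa10 and Hoxc10 had CTCF at 212.46 and 207.65 and no Smc3, at CTCF pileups no lower than that of Hoxc5. In wild type Smc3 was listed at these genes at 38 and 34. Of 1103 olfactory receptor genes, 24 had CTCF and 3 both, below those shares, with Smc3 pileups between 18.52 and 24.7.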

How the data were processed

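Per the labels' protocols, reads were single-end and 50 bp long. The submitters' processing notes name, without role or order, build mm10, MACS2 (version 2.1.0.20140616), Bowtie (0.12.8), deepTools (2.4.1), CASAVA and FastQC (0.10.1). Of 8 libraries, the input and IgG ones were not used here. Peak calling settings, controls and read numbers are not given in the sources used here, so depth is unknown. Each list is numbered as 1 library. The protocol names anti-Rad21 and anti-CTCF, whereas the antibody label of the Smc3 library names Smc3, which was followed. In the deposited lists the authors gave each peak's bounds, length and summit (other numbers, in bp), the pileup signal, p-value and q-value, and fold enrichment as a ratio to local background. The pileup steps differ between lists, so pileups were ranked within a list and their ratio between lists was not read.

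Overlaps, summit distances, ranks and exact intervals were computed with scipy 1.17.1, pandas 2.3.3 and numpy 2.4.6 under Python 3.11.15, drawn with matplotlib 3.10.9 and tested on simulated peaks. The implied background is pileup plus 1, divided by fold, minus 1. Genes and sequences came from RefSeq (GRCm38.p6). Start windows, which carry the strand, exist for 16457 of 20665 protein-coding genes and for none on chromosome 18, whose genes were taken by either end. Histone genes were matched by older symbols. Genes named from a list are the highest by pileup in each class, and others are said to be chosen after values were seen. The members, lists and rules were chosen with earlier results of these data known.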

Additional observations from a re-analysis of the deposited data

How the results depend on the processing

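No paired analysis was possible because each protein and line has 1 library and the labels give no replicate numbers, and for the same reason no library could be left out. Of 61 recomputed values, 32 stayed within the interval or tolerance of the reported one and 29 did not. With an overlap of at least 50% of both peaks, 52.2% of Smc3 and 16.5% of CTCF peaks were matched, the summit distance was 23 bp, 0% of Smc3 peaks had several CTCF peaks, the width ratio was 1.62 and rho 0.714. This rule drops pairs of unequal width. With q of 1e-10 or less the values were 99.2%, 23.2%, 22 bp, 1.79 and 0.494, with 880 genes that had both. With the CTCF list held to its 25400 highest peaks they were 77.1%, 75.3%, 23 bp, 0.0153% with several CTCF peaks, 1.99 and 0.408. Without chromosomes 1, 8 and 11 the CTCF share was 29.9% and rho 0.514, and with the sex chromosomes the CTCF share was 30.0%. One-to-one pairs gave a width ratio of 1.92, and ranking by fold a rho of 0.514. Genes with both numbered 895 in 500 bp windows and 2872 in 2500 bp windows. Among values recomputed by alternatives chosen after seeing the data, histone genes with Smc3 numbered 48 to 57 and, past the 3' end, 35 to 45, except in 500 bp windows around the start (5, with 4 lacking CTCF). Ribosomal protein genes with Smc3 past the 3' end numbered 10 to 37. The tolerance was 0.02 for rho, a factor of 1.5 for counts of genes and the exact 95% interval for shares and medians, so counts of genes with both of 1136 without those chromosomes and 1247 with the shorter CTCF list stand among the 32. Unknown depth and 1 library per protein limit every value: a CTCF peak without Smc3 is one without a listed Smc3 peak.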

Other observations

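The X chromosome, outside the autosomal comparison, had Smc3 at 322 of 1939 CTCF peaks (16.6%, exact interval 15.0 to 18.3) in C59, below the 26.5% that was the lowest share of any autosome. Its median CTCF and Smc3 pileups were 47.11 and 23.15, and the lowest medians of the autosomes other than 1 and 11 were 52.87 and 29.33. Of its 328 Smc3 peaks, 325 overlapped CTCF, with a median summit distance of 31 bp and a rho of pileup of 0.332. In wild type 37.9% of 2396 CTCF peaks on the X had Smc3, also below the lowest share of any autosome there, 41.6%. A low share on the X was thus not particular to C59. On the Y, 0 of 15 CTCF peaks in C59 had Smc3, too few for a statement.

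CTCF peaks with Smc3 were spaced at a median of 40235 bp from one to the next along a chromosome, and all CTCF peaks at 10643 bp. The nearest other CTCF summit lay at a median of 5345 bp from a CTCF peak with Smc3 and 5264 bp from one without, so local crowding of CTCF peaks was much alike in both classes.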
